A study of Homo sapiens with 10 samples.

Results

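The barcodes described here are the deep, high-mitochondrial barcodes of doxorubicin-treated (DOX) human colon cancer cells. They were selected on measured values: a barcode was a member when it carried at least 10000 and fewer than 150000 unique molecular identifiers (UMIs, which count captured RNA molecules) and when 8% or more of its UMIs came from genes of the mitochondrial genome, whose symbols start with MT-. This gave 1301 members among the 3619 DOX barcodes of that depth and among 23229 barcodes in all 4 single-cell libraries. DOX replicate 1 held 620 members among 1928 deep barcodes (32.2%, 95% exact binomial interval 30.1 to 34.3%), and DOX replicate 2 held 681 among 1691 (40.3%, 37.9 to 42.7%). The remaining 2318 deep DOX barcodes, 1308 and 1010 by replicate, had a mitochondrial share below 8% and served as control. Barcodes of the high-mitochondrial kind were removed by the quality filter of the study and so had no place in its clusters.

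The study set surviving, still dividing HCT-116 cells against senescent ones after chemotherapy. HCT-116 is a human colon carcinoma line. The DOX libraries came from HCT-116 cells kept for 24 h in 200 nM doxorubicin and then for 6 days without the drug, and the untreated libraries came from the same line without the drug, with 2 libraries in each condition. Nothing in the sources used here says that the libraries were separate cultures, so the p-values measure the spread between these libraries, and intervals on shares cover counting error only. In the untreated libraries the same rule found 550 barcodes among 3992 deep ones (13.8%, 12.7 to 14.9%) and 187 among 2121 (8.82%, 7.64 to 10.1%).

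Doxorubicin intercalates into DNA and traps topoisomerase II on it, and the resulting breaks activate p53, which arrests the cell cycle. The mitochondrial genome encodes a small set of respiratory chain subunits, while all other mitochondrial proteins are encoded in the nucleus, made on cytosolic ribosomes and imported. The mitochondrial share is a ratio that more mitochondrial RNA and less other RNA raise alike, and for that reason both are given apart below and all comparisons of genes leave the mitochondrial genome out.

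At the median, the members differed from control chiefly in their mitochondrial UMIs, with total depth close to that of control, but a larger part of the members was shallow. Their median depth was 67328 and 70986 UMIs in the 2 DOX libraries, against 70414 and 78923 UMIs in control. The lower quartile of depth was 38382 and 38383 UMIs, against 53667 and 62472 UMIs in control. Below 50000 UMIs lay 203 of 620 and 224 of 681 members, against 266 of 1308 and 146 of 1010 control barcodes. Their median number of mitochondrial UMIs was 8940.5 and 8997, against 3565.5 and 4261.5 in control, and their median number of other UMIs was 57235 and 61256, against 66248 and 74626 in control. These depths and counts are values that the rule used and are given as a description. The median share was 13.1% and 12.1% among members, up to 91.1% and 93.2%, against 5.18% and 5.56% in control. Just inside the limit, at 8 to 8.5%, lay 51 and 76 barcodes with a median of 71394 and 68526 UMIs. Just outside, at 7.5 to 8%, lay 83 and 92 barcodes with a median of 70180 and 68106 UMIs. The limit thus cut through barcodes of similar depth.

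The composition of the mitochondrial UMIs shifted as well, which is again a description. MT-CO3, a subunit of cytochrome c oxidase, was the most abundant mitochondrial transcript, with 21.6% and 20.5% of the mitochondrial UMIs of members, against 23.6% and 23.1% in control. MT-CO1, the catalytic subunit of the same enzyme, made up 15.1% and 15.5% in members, against 14.0% and 13.7% in control, and MT-ND1 of complex I made up 2.35% and 2.54%, against 2.63% and 2.87%. MT-CYB of complex III took 10.6% and 10.9% in members, against 9.01% and 9.11% in control. MT-ND6, the only protein-coding gene on the opposite strand from the rest, took 0.178% and 0.202% in members, against 0.460% and 0.524% in control. The untreated barcodes above 8% had 0.63% and 0.69% MT-ND6, against 0.82% and 0.87% in their own control, so the MT-ND6 share was lower above 8% in every library. Per barcode, members held a mean of 17.5 and 20.9 MT-ND6 UMIs, against 16.5 and 22.2 in control, and 1483.5 and 1612.0 MT-CO1 UMIs, against 504 and 579.

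**Figure D1:**
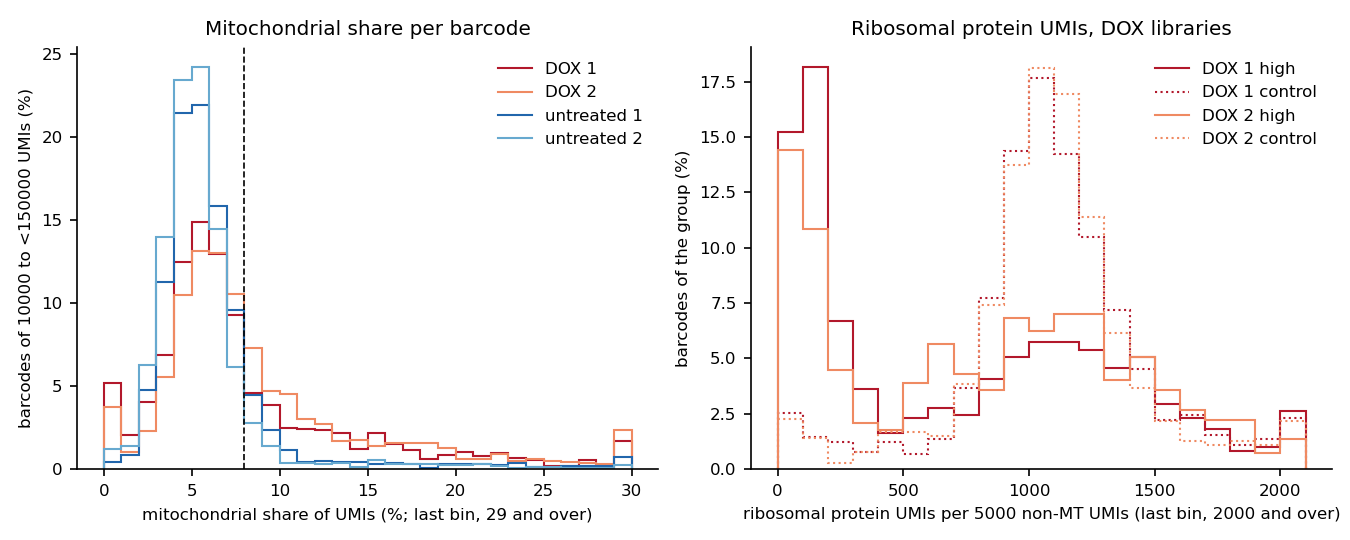
Left, distribution of the mitochondrial share (percent of UMIs, x axis) over barcodes of 10000 to below 150000 UMIs (percent of such barcodes, y axis) in each library, with the 8% limit dashed. Right, cytosolic ribosomal protein UMIs among 5000 drawn non-mitochondrial UMIs per barcode (x axis) in members and control of the DOX libraries (percent of the group, y axis): members form a low group that is rare in control, with 43.7% and 31.8% of members below 400 UMIs, against 5.96% and 4.75% of control.

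The 4 libraries held between 2528 and 8000 barcodes, and the 2 DOX libraries were set to 8000 barcodes each by the authors. All 8 epithelial markers (among them EPCAM, keratins, E-cadherin and claudins) were detected, and they summed to 7550 and 7104 CPM (UMIs of a gene scaled to a fixed total of the non-mitochondrial UMIs of the summed barcodes) in members and to 6834.6 and 6272 CPM in control. In the test described below, 1 of these 8 was higher and 5 were lower (median log2 fold change -0.29, 0.21 without scaling). In members of 15% or more, 1 was higher and 7 were lower, and at 8 to below 10%, 4 were higher and 1 lower. Of 14 markers of immune cells 6 had enough counts to be tested and 1 was at 0 in all 4 sums, and the 14 summed to 9.95 and 11.7 CPM in members, against 5.36 and 6.18 CPM in control, and 11 markers of fibroblasts and endothelium, 4 of them tested and 1 at 0, summed to 28.5 and 29.4 CPM, against 15.1 and 13.3 CPM. Both sums were higher in members, and their part in the results below was not tested. The number of genes detected among 5000 drawn UMIs had a median of 2601 and 2552 in members, against 2382 and 2408 in control. DOX replicates 1 and 2 shared 24 barcode sequences but no deep one, and no doublet caller was run.

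To compare the groups, non-mitochondrial UMIs were summed over the members and over the control barcodes of each DOX library, which gave sums of 36368745 and 42618961 UMIs for members and 91767729 and 77205509 UMIs for control. These 4 sums were tested with edgeR's quasi-likelihood test, with library as a block. Of 20909 genes tested, 5698 were higher in members (27.3% of those tested) and 6775 were lower (32.4%) at an adjusted p below 0.05. These shares are the background of every count of list genes below that sets all members against control. Of the 12473 called genes, 12452 lay on the same side in both libraries after the scaling described next. The genes were called on these same 2 libraries, so this follows largely from the calling and is a description only. Fold changes below carry the trimmed-mean (TMM) scaling of edgeR, under which the median gene differed by 0.03 on the log2 scale. Without that scaling every log2 fold change would be 0.50 higher, 80.2% rather than 45.7% of the calls would be higher, and the CPM values printed here are on that unscaled footing. With DESeq2 that share was 35.5%. With 2 pairs an exact sign-flip permutation test of a single value cannot go below p = 0.5, so p-values come only from the fit across all genes.

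Cell cycle genes fell together in the members. All 61 G2/M phase genes and all 53 S phase genes tested were lower, with a median log2 fold change of -1.24 and -1.19, beside a background of 32.4% of genes lower and a median of 0.03 over all genes. The G2/M genes summed to 3176.5 and 3396.5 CPM in members, against 5362.6 and 5733 CPM in control, and the S phase genes to 2150.5 and 2372.5 CPM, against 3279 and 3666.5 CPM. These genes move chromosomes and copy DNA in dividing cells.

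CDC20, which activates the anaphase-promoting complex, had 58.2 and 62.1 CPM in members, against 147 and 151 CPM in control. Its log2 fold change was -1.81 ± 0.05 (SE, n = 2 libraries, adjusted p = 8.9e-11). CCNA2, the cyclin of S phase and G2, had 21.3 and 22.7 CPM in members, against 55.2 and 58.7 CPM in control, a log2 fold change of -1.88. CCNB1, the cyclin that drives entry into mitosis, had 67.8 and 73.6 CPM in members, against 158 and 173 CPM. MAD2L1, which holds anaphase back until chromosomes are attached, had 46.9 and 60.1 CPM in members, against 147 and 156 CPM, a log2 fold change of -2.01. In each of these genes the members of both libraries lay below both control sums. Genes were named partly by their results in these same sums, so this is a description only.

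The kinetochore genes CENPW and ZWINT followed, with log2 fold changes of -1.94 and -1.79. So did HMGB2, a chromatin protein that is abundant in dividing cells (-1.94), KIAA0101, which encodes a PCNA-binding factor (-1.83), and the replication genes GMNN (-1.77) and FEN1 (-1.67). MKI67, the classical proliferation marker, had 126 and 133 CPM in members, against 187 and 207 CPM in control, a log2 fold change of -1.10 ± 0.05 (SE, n = 2 libraries). PCNA, the sliding clamp of DNA replication, had 100.2 and 98.9 CPM, against 159 and 162 CPM. BIRC5, an inhibitor of apoptosis made in mitosis, had 59.0 and 77.6 CPM, against 142 and 158 CPM, and LMNB1, the lamin that is lost in senescence, had 40.1 and 45.1 CPM, against 62.5 and 73.2 CPM.

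Among genes with a mean of at least 20 CPM, histone genes made up the 3 largest falls. Of 32 histone genes tested, 27 were lower and 0 higher, with a median of -1.37. Their median span was 2.25 kb. Among genes that span up to 3 kb, 29.7% of all tested were lower. Of those coding for protein with a mean of at least 5 CPM, 95.3% were lower (median -0.87). HIST1H4C, a histone H4 gene, had 320 and 468 CPM in members, against 1045 and 1265 CPM in control, a log2 fold change of -2.07. HIST1H1E, a linker histone, had 9.13 and 15.9 CPM, against 39.9 and 48.1 CPM, a log2 fold change of -2.33, and HIST2H2AC had 11.6 and 23.5 CPM, against 43.4 and 61.6 CPM (-2.11). H2AFZ, a variant histone made outside S phase too, had 519 and 614 CPM in members, against 1402 and 1479 CPM (-1.85). Histone genes are near-identical copies, so the split of reads among single ones is uncertain. RMRP, the RNA of the RNase MRP complex, completed the 12 largest falls with 12.8 and 15.8 CPM, against 32.1 and 38.3 CPM (-1.80).

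**Figure D2:**
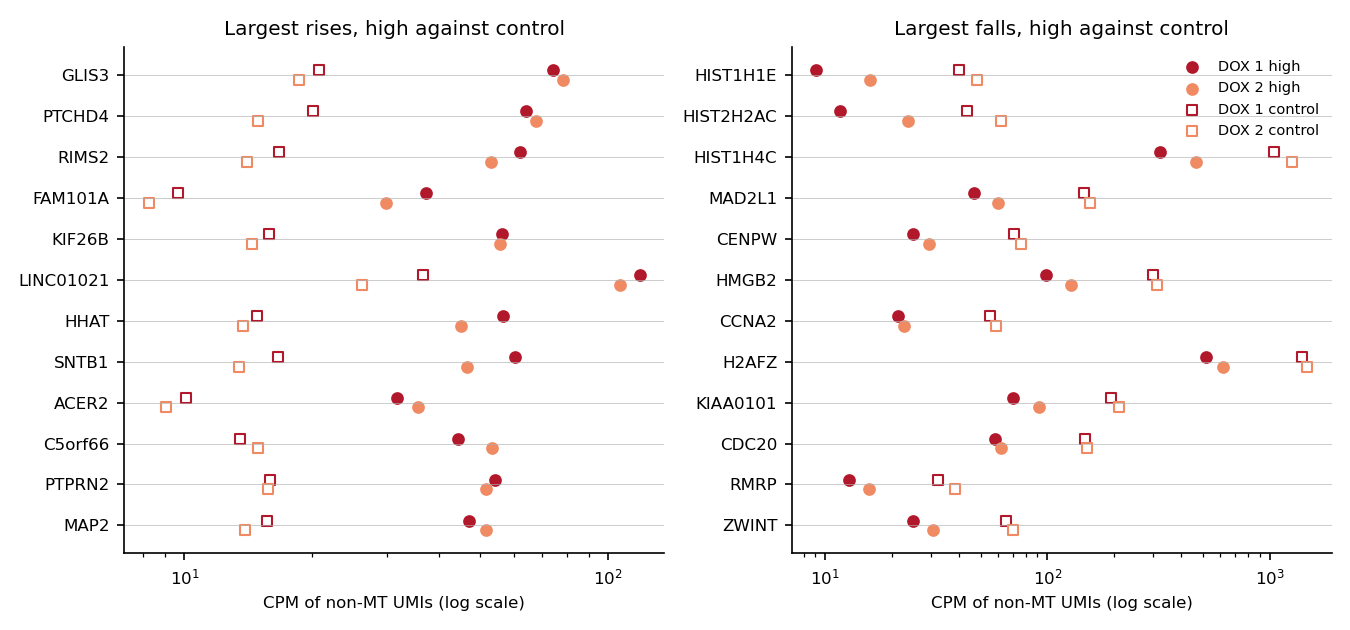
CPM of non-mitochondrial UMIs (x axis, log scale) of the 12 genes with the largest rise (left) and the 12 with the largest fall (right) in members against control, 1 point per DOX library and group. GLIS3 lies at 74.1 and 78.2 CPM in members, against 20.8 and 18.7 CPM in control. The genes were picked for a change on the same side in both libraries.

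The members differed among themselves in these genes. Each barcode was thinned to 5000 non-mitochondrial UMIs, which left 611 and 672 members, and S and G2/M UMIs were counted. Barcodes with at most 15 such UMIs made up 50.9% (46.9 to 54.9%) and 44.9% (41.1 to 48.8%) of members, against 26.4% (24.0 to 28.9%) and 21.4% (18.9 to 24.0%) of control. In untreated libraries they made up 7.29% and 5.95% of the barcodes above 8%, against 1.10% and 1.29% of their control. The value of 15 is a limit on a continuous measure, chosen after the data were seen, and 155 and 204 members had 10 to 20 cycle UMIs. With both groups limited to at most 15 cycle UMIs, 19 of 60 G2/M genes were lower and 2 higher (median -0.30, 0.039 without scaling), beside 21.9% of all genes lower and 15.4% higher. MKI67 stood at 0.08 there and at 0.42 without scaling, and neither value passed the threshold. With both groups at 30 or more cycle UMIs, 46 of 61 were lower and 1 higher (median -0.50, 0.0093 without scaling), beside 28.8% of all genes lower and 24.5% higher. Since these limits used the same genes, nothing is read from the cycle lists here.

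Nuclear genes for mitochondrial proteins were lower in the members. All 37 nuclear genes of respiratory complex I were lower (median -0.98), as were all 24 of complexes II to IV (median -0.92) and all 18 of the ATP synthase (median -1.04). Over all genes tested 32.4% were lower. Among protein-coding genes with a mean of at least 5 CPM that span 10 to 30 kb of the genome, 72.6% were lower (median -0.50). The 35 complex I genes with a known span had a median of 14.6 kb. The part of this wider fall in that of the list was not tested. The complex I genes summed to 4738 and 4826.5 CPM in members, against 6500.5 and 6629 CPM in control. Of the 79 mitochondrial ribosomal protein genes tested, 78 were lower and 0 higher (median -1.05). Of 31 genes for protein import and quality control, 30 were lower and 1 higher (median -0.96). Where spans were known, the mitochondrial ribosome and the import lists had medians of 11.5 and 13.2 kb, in the same span class as complex I.

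NDUFS7, a subunit of complex I that carries an iron-sulfur cluster, had 45.7 and 50.5 CPM in members, against 76.1 and 84.0 CPM in control, a log2 fold change of -1.24. COX8A of cytochrome c oxidase had 183 and 195 CPM in members, against 305 and 306 CPM (-1.20), and UQCRFS1, the Rieske protein of complex III, had 117 and 117 CPM, against 175 and 176 CPM (-1.09). ATP5G3, which encodes the rotor ring subunit of ATP synthase, had 328 and 334 CPM in members, against 589 and 593 CPM (-1.34). MRPL11 of the mitochondrial ribosome had 112 and 116 CPM, against 214 and 220 CPM (-1.44). These genes were picked by their adjusted p in the same sums, so their small spread between replicates and lack of overlap between groups follow from the choice.

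TOMM22, a receptor of the import pore in the outer membrane, had 142 and 147 CPM in members, against 265 and 269 CPM in control, a log2 fold change of -1.39. HSPD1, the matrix chaperonin, had 894 and 943 CPM, against 1371 and 1446 CPM (-1.12, named after its values were seen). CYCS, which encodes cytochrome c, had 205 and 217 CPM, against 375 and 406 CPM (-1.39), and PRDX3, the peroxiredoxin of the matrix, had 141 and 150 CPM, against 264 and 264 CPM (-1.36).

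The genes that transcribe and process mitochondrial RNA were less uniform. Of 34 tested, 25 were lower and 5 higher, with a median of -0.41 that turned to 0.10 without scaling. TFAM, the packaging and transcription factor of the mitochondrial genome, had 55.8 and 52.2 CPM in members, against 89.5 and 90.9 CPM in control (-1.24). Of 25 genes for fission, fusion and mitophagy, 19 were lower and 2 higher, with a median of -0.29 that turned to 0.21 without scaling.

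Genes of the cytosolic ribosome were lower too. Of 83 tested, 81 were lower and 0 higher (median -0.88). They summed to 166520 and 176220 CPM in members, against 223160 and 220250 CPM in control, the largest share of UMIs of any list. The 82 with a known span had a median of 5.55 kb. Among protein-coding genes with a mean of at least 5 CPM that span 3 to 10 kb, 86.0% were lower (median -0.74). The part of this wider fall in that of the list was not tested. RPS26 had 1002 and 1090 CPM in members, against 1606 and 1690 CPM in control (-1.16), and the paralogs RPL22L1 and RPL26L1 had log2 fold changes of -1.08 and -1.14. Reads of these genes can be shared with processed pseudogenes.

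The members were split in this list. Of 611 and 672 thinned members, 267 (43.7%, 39.7 to 47.7%) and 214 (31.8%, 28.3 to 35.5%) had fewer than 400 ribosomal protein UMIs among 5000. In control the shares were 5.96% (4.74 to 7.39%) and 4.75% (3.52 to 6.25%). Such barcodes were found in the untreated libraries as well, where they made up 31.1% (27.3 to 35.2%) and 44.9% (37.6 to 52.3%) of barcodes above 8%, against 0.261% and 0.310% of their control. The distribution of members had a low and a high group with a trough but no gap between them, and 32 and 26 members lay between 300 and 500 UMIs. The limit of 400 thus cut a continuous measure and was set after the data were seen. Members below 400 had a median of 56460 and 67780 UMIs in all, against 77524 and 72044 in the members at or above it. Their median share was 17.3% and 18.4%, against 10.7% and 10.5%, and nuclear retained RNAs had a median of 161 and 194.5 UMIs of 5000, against 29 and 41. Their median p53 target UMIs were 17 and 17 of 5000, against 15 and 15. Cycle UMIs of at most 15 were found in 44.6% and 45.3% of the members below 400, against 55.8% and 44.8% of the other members. Members poor in ribosomal protein RNA were thus richer in nuclear retained RNA, whereas the share with few cycle UMIs was lower in replicate 1 and much the same in replicate 2. The richness in nuclear retained RNA was not particular to members. The 78 and 48 control barcodes below 400 had a median of 200 and 243 such UMIs, against 26 and 29 in other control barcodes. Their median mitochondrial share was 0.74% and 0.54%, and their median p53 target UMIs were 20 and 21.

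Targets of p53 were split. HCT-116 cells have an intact p53 gene. Of 34 targets tested, 20 were higher and 10 lower, beside 27.3% and 32.4% of all genes, with a median of 0.17. They summed to 3723 and 3480 CPM in members, against 2529 and 2190.5 CPM in control. MDM2, which marks p53 for degradation, had 372 and 388 CPM in members, against 162 and 142 CPM in control, a log2 fold change of 0.82 ± 0.06 (SE, n = 2 libraries, adjusted p = 6.5e-08). TP53INP1, a p53-induced nuclear protein, had 57.5 and 49.7 CPM, against 24.0 and 15.9 CPM (0.94). ZMAT3, an RNA-binding repressor of growth, had 108 and 96.2 CPM, against 52.4 and 44.5 CPM (0.57). GDF15, a secreted stress factor, had 533 and 431 CPM in members, against 322 and 241 CPM (0.28 ± 0.06, adjusted p = 0.00074). TP53INP1 and ZMAT3 were named after their values were seen. With both groups limited to at most 15 cycle UMIs 5 of 33 were higher and 20 lower (median -0.26), with GDF15 at -0.30 and ZMAT3 at -0.11. These directions depended on the scaling, since without it 11 of 33 were higher and 7 lower (median 0.085), with GDF15 at 0.042 and ZMAT3 at 0.24. At 30 or more cycle UMIs 18 of 33 were higher and 6 lower (median 0.37).

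CDKN1A, which encodes the cell cycle inhibitor p21, had 335 and 298 CPM in members, against 289.6 and 204 CPM in control. Its log2 fold change of -0.12 ± 0.07 missed the threshold (adjusted p = 0.16) and turned to 0.38 without scaling and to 0.30 when control was limited to shares of 4 to below 8%. TRIAP1, an inhibitor of apoptosis, fell with 65.8 and 65.8 CPM in members, against 86.7 and 82.9 CPM (-0.87). BAX, which opens the outer mitochondrial membrane in apoptosis, had 148 and 142 CPM in members, against 141 and 129 CPM, a log2 fold change of -0.40 that turned to 0.11 without scaling (named after its values were seen). The 20 targets that rose had a median gene span of 35.9 kb, 11 of them 30 kb or longer, and the 10 that fell had a median of 5.97 kb, 2 of them 30 kb or longer.

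The 12 largest rises were taken among genes with a mean of at least 20 CPM. Of them ACER2 spans 43497 bases of the genome, and the others span between 254525 (PTCHD4) and 1048766 bases (PTPRN2). GLIS3, a zinc finger transcription factor (GRCh37 chromosome 9, positions 3824127 to 4348392), had 74.1 and 78.2 CPM in members, against 20.8 and 18.7 CPM in control, a log2 fold change of 1.45 ± 0.06 (SE, n = 2 libraries, adjusted p = 3.0e-10). PTCHD4, a patched-domain protein and known p53 target, had 64.1 and 67.6 CPM, against 20.1 and 14.9 CPM (1.41). LINC01021, a long noncoding RNA induced by p53 (chromosome 5, positions 27217821 to 27497978), had 119 and 107 CPM, against 36.6 and 26.2 CPM (1.36). Among barcodes of 10000 to below 50000 UMIs LINC01021 stood at -0.025 (adjusted p = 0.96). ACER2, an alkaline ceramidase that p53 induces, had 31.8 and 35.6 CPM, against 10.1 and 9.07 CPM (1.31). In these 4 genes the members exceeded every control sum more than 2-fold, which follows from their choice among the largest rises.

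RIMS2, a scaffold of vesicle release, FAM101A, which regulates filamin, and the kinesin gene KIF26B rose by 1.40, 1.40 and 1.38 on the log2 scale. HHAT, the acyltransferase of hedgehog proteins, and SNTB1, a syntrophin, rose by 1.32 each. C5orf66, the phosphatase-like PTPRN2 and the microtubule-associated MAP2 rose by 1.27, 1.24 and 1.23.

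Across the genome the direction of change went with gene span, the distance from the first to the last base of a gene with introns included. Of the 20909 genes tested, 20265 (96.9%) had a span in the annotation. Above 300 kb, 69.5% of 992 genes were higher and 3.13% lower, with a median log2 fold change of 0.56. From 3 to 10 kb, 10.9% of 3207 genes were higher and 44.8% lower, with a median of -0.28. The rank correlation of span and fold change across genes was 0.32. That of mean CPM and fold change was larger in size, at -0.46. Genes share libraries and their span goes with expression level, so both correlations are given as a description. The part of expression level in the gradient was not separated from that of span. Exonic length, with introns left out, had a rank correlation of 0.04.

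Among protein-coding genes with a mean of at least 5 CPM the gradient was steeper, with 81.0% of 453 genes higher above 300 kb and 86.0% of 1375 genes lower at 3 to 10 kb. In the untreated libraries the median fold change of genes above 300 kb was 0.39 and that of genes of 3 to 10 kb was -0.25, with a rank correlation of 0.24. A gradient with span was thus measured without the drug as well. Long noncoding RNAs had a median of 0.33 in the DOX members, beside -0.07 for protein-coding genes.

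**Figure D3:**
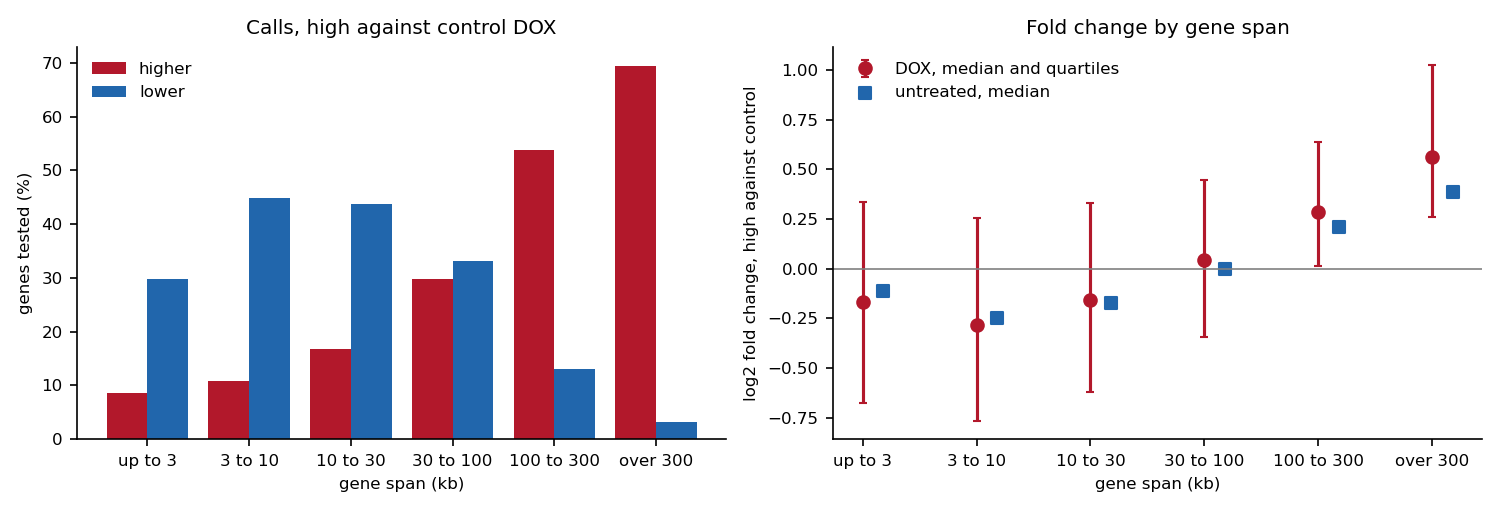
Left, share of the genes of each span class (x axis, kb) called higher or lower in members against control of the DOX libraries (percent, y axis). Right, median log2 fold change by span class, for DOX with its quartiles and for untreated barcodes: the DOX median is -0.28 at 3 to 10 kb and 0.56 above 300 kb.

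RNAs that are known to stay in the nucleus were higher. Of 6 tested, 4 rose and 0 fell (median 0.58), beside 27.3% of all genes higher and 32.4% lower. Together the 6 made up 21962 and 21561 CPM of members, against 10268 and 9580 CPM of control. MALAT1, a nuclear speckle RNA, had 19716 and 19282 CPM in members, against 9366 and 8824 CPM in control (0.60 ± 0.11, SE, n = 2 libraries, adjusted p = 0.00045, named after its values were seen). NEAT1, the scaffold of paraspeckles, had 1964 and 2010 CPM, against 719 and 590 CPM (1.11). KCNQ1OT1, an imprinted antisense RNA, had 50.3 and 50.9 CPM, against 22.5 and 25.97 CPM (0.56). The noncoding hosts of small nucleolar RNAs, which are spliced and exported, were lower in 8 of 8 genes (median -0.67). In members of 8 to below 10%, 2 of 8 were lower (median 0.0018). The 7 hosts with a known span had a median of 5.16 kb. GAS5, SNHG1, SNHG3, SNHG5, SNHG6, SNHG16 and SNHG29 were meant for this list but were not found among the counted genes. Nor were SNHG14 and MIR17HG of the nuclear list.

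Nuclear copies of mitochondrial ribosomal RNA sequence rose in 5 of 9 genes and fell in 0 (median 0.82). MTRNR2L12 had 372 and 479 CPM in members, against 125 and 171 CPM (1.03), and MTRNR2L1 had 127 and 152 CPM, against 49.1 and 63.0 CPM (0.82). These copies cannot be told apart from the mitochondrial ribosomal RNAs they resemble. Members were chosen by mitochondrial RNA, so the rise may follow from the rule and is a description only. In untreated libraries 6 of 9 copies were higher and 0 lower above 8% (median 0.85). Leaving them out of the fit left 5691 genes higher and 6771 lower.

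**Figure D4:**
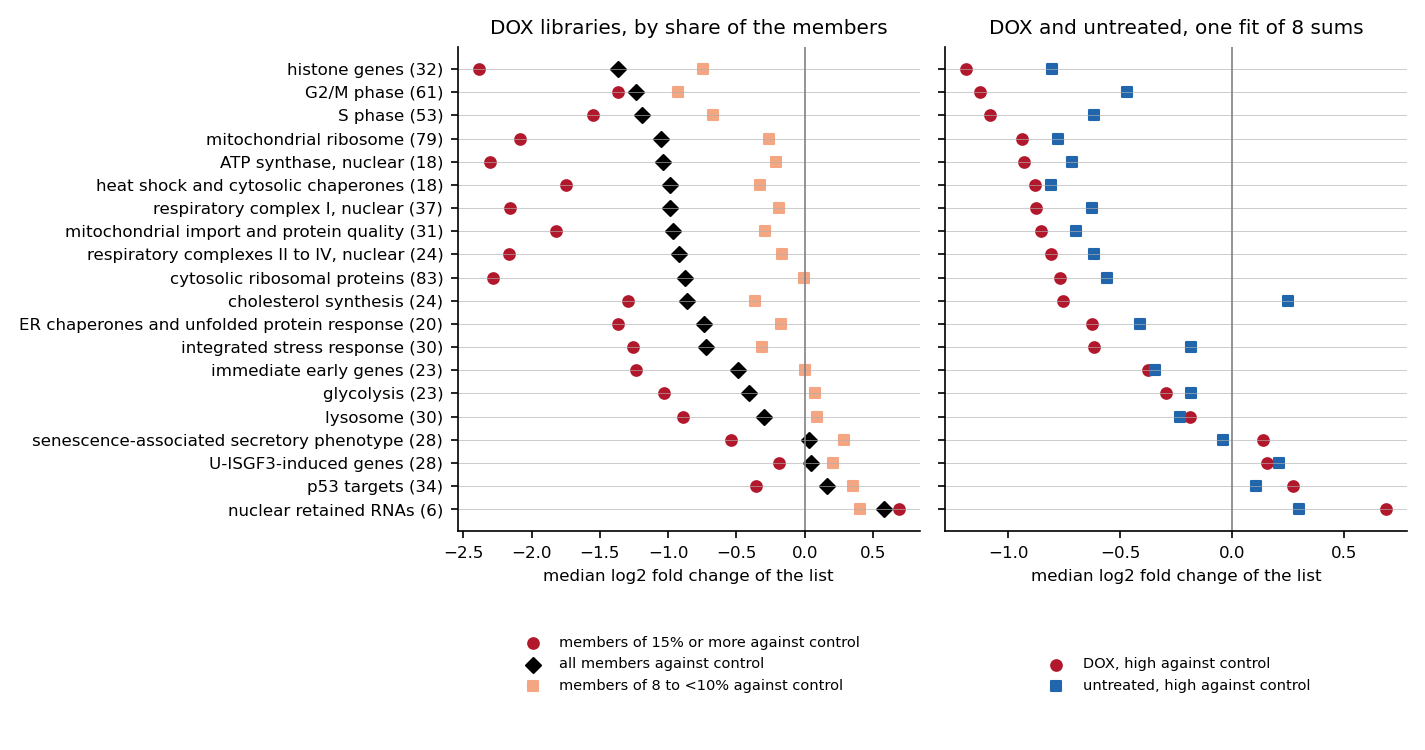
Median log2 fold change (x axis) of 20 gene lists (number of genes tested in brackets). Left, members of the DOX libraries against control, for members of 8 to below 10%, all members and members of 15% or more. Right, high against control in DOX and in untreated libraries from the fit of 8 sums: cholesterol synthesis lies at -0.75 in DOX and at 0.25 in untreated libraries.

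Stress and metabolic programs did not rise as groups. Of 30 genes of the integrated stress response, which cells switch on when mitochondria or protein synthesis fail, 25 were lower and 1 higher (median -0.73). Over all genes tested 32.4% were lower and 27.3% higher. DDIT3, its pro-apoptotic factor CHOP, had 13.6 and 17.2 CPM in members, against 26 and 31.2 CPM in control (-1.40). PHGDH and MTHFD2, which feed serine and folate metabolism, had log2 fold changes of -1.48 and -1.17. Of 18 heat shock genes, 16 were lower and 0 higher (median -0.99), with CHORDC1 and DNAJB1 at -1.24 and -1.16. Of 20 genes of the endoplasmic reticulum stress response, 17 were lower and 2 higher (median -0.74), with SDF2L1 and MANF at -1.41 and -1.23.

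Of 23 immediate early genes, 16 were lower and 1 higher, with a median of -0.49 that turned to 0.02 without scaling, and KLF2 had 17.2 and 21.6 CPM in members, against 35.4 and 37.1 CPM (-1.41). Of 28 antioxidant and iron genes 23 were lower and 0 higher (median -0.56), and all 4 metallothioneins tested were lower, among them MT1E with 1117 and 1099 CPM in members, against 1745 and 1677 CPM (-1.13). Median spans were 4.11 kb for immediate early genes, 14.6 kb for antioxidant and iron genes and 1.68 kb for metallothioneins. In those span classes 86.0%, 72.6% and 95.3% of protein-coding genes with a mean of at least 5 CPM were lower.

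Of 24 cholesterol synthesis genes, 23 were lower and 0 higher (median -0.86). EBP, a sterol isomerase, had 27.8 and 31.6 CPM in members, against 53.3 and 63.2 CPM in control (-1.47), and SQLE, squalene epoxidase, had 74.3 and 75.7 CPM, against 107 and 113 CPM (-1.06). Of 23 glycolysis genes, 15 were lower and 5 higher, with a median of -0.40 that turned to 0.10 without scaling. ENO1, LDHB and GAPDH, which act in the payoff phase of glycolysis and beyond, had log2 fold changes of -1.02, -1.20 and -0.94, with ENO1 and GAPDH named after their values were seen. Of 30 lysosomal genes 17 were lower and 4 higher (median -0.30, 0.21 without scaling), and of 28 genes of the BCL2 family and cell death 16 were lower and 7 higher (median -0.22, 0.28 without scaling).

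Genes induced by unphosphorylated interferon-stimulated gene factor 3 (U-ISGF3), the interferon program of the study, did not move as a group. Of 28 tested, 7 were higher and 9 lower (median 0.05), and they summed to 1434 and 1535 CPM in members, against 1452 and 1448 CPM in control. DDX58, the RNA sensor RIG-I, had 135 and 129 CPM in members, against 59.5 and 62.1 CPM (0.62). ISG15, a ubiquitin-like modifier, had 573 and 636 CPM, against 737 and 739 CPM (-0.79), and IFI27 had 105 and 133 CPM, against 139 and 138 CPM (-0.73). HSH2D had 56.2 and 58.7 CPM, against 33.4 and 34.4 CPM (0.26). The 7 that rose had a median span of 49.0 kb and the 9 that fell of 13.9 kb.

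Senescent cells secrete cytokines, growth factors and proteases, and of 28 such genes tested 9 were higher and 8 lower (median 0.03). The list of 36 genes summed to 2072 and 1976 CPM in members, against 1697 and 1592 CPM in control. EREG, an EGF receptor ligand, went the other way, with 424 and 406 CPM in members, against 481 and 483 CPM in control (-0.72). The medians of the interferon and the secretory lists changed sign under some alternatives.

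The members were not uniform along their share. In a comparison added after the data were seen, the 164 and 203 members of 8 to below 10% and the 250 and 245 members of 15% or more were each set against the same control sums, and then against each other. Of 19219 genes tested, 1059 (5.51%) were higher and 1843 (9.59%) lower in members of 8 to below 10% than in control. Of 20773 tested, 5743 (27.6%) were higher and 7166 (34.5%) lower in members of 15% or more. In the direct comparison of the high with the low band, 4146 of 17262 genes (24.0%) were higher and 5368 (31.1%) lower. Without scaling, log2 fold changes between the bands were 0.73 higher and 79.3% rather than 43.6% of the calls were higher. In the low band against control they were 0.06 higher, with 52.6% rather than 36.5% of the calls higher.

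In the low band nearly all cell cycle genes were lower, and few ribosomal protein genes passed the test. G2/M genes were lower in 60 of 61 cases (median -0.93) and S phase genes in 52 of 53 (median -0.67). Cytosolic ribosomal protein genes were lower in 2 of 83 (median -0.01, 0.054 without scaling), complex I genes in 16 of 37 (median -0.19) and ATP synthase genes in 11 of 18 (median -0.21). Ribosomal protein genes summed to 224360 and 235090 CPM in the low band, beside 223160 and 220250 CPM in control. Targets of p53 were higher in 25 of 33 and lower in 0 (median 0.36), with CDKN1A at 421 and 327 CPM in the low band, against 289.6 and 204 CPM in control, a log2 fold change of 0.55 ± 0.06 (SE). GDF15 rose by 0.79.

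In the high band the lists parted in another way. Ribosomal protein genes were lower than in the low band in 80 of 81 cases (median -2.12), with 79972 and 96663 CPM, against 224360 and 235090 CPM. Complex I genes were lower in 36 of 37 (median -1.75), ATP synthase genes in 18 of 18 (median -1.92) and histone genes in 22 of 27 (median -1.63). G2/M genes were lower in 28 of 61 and higher in 4 (median -0.36), beside 31.1% of all genes lower and 24.0% higher, but the direction turned without scaling, with 31 higher and 15 lower (median 0.37). They summed to 3733 and 3323 CPM in the high band, against 2907 and 3814 CPM in the low band, so the replicates went opposite ways. MKI67 had 192 and 161 CPM in the high band, against 87.2 and 135 CPM in the low band, and LMNB1 had 62.4 and 58.3 CPM, against 29.2 and 45.1 CPM. With scaling neither passed the threshold (-0.05 ± 0.17, SE, adjusted p = 0.83 for MKI67 and -0.01 ± 0.15, SE, adjusted p = 0.94 for LMNB1). Without it both were higher in the high band, by 0.68 (adjusted p = 0.0011) and 0.72 (adjusted p = 0.00044).

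Targets of p53 were lower in the high band in 21 of 33 cases and higher in 6 (median -0.70), but without scaling 13 were higher and 11 lower (median 0.028). The list summed to 3812 and 3656 CPM in the high band, against 3501 and 3104 CPM in the low band. CDKN1A was lower under both scalings, at 228 and 237 CPM, against 421 and 327 CPM in the low band, a log2 fold change of -1.40 ± 0.11 (SE) with and -0.67 without scaling. MDM2 differed by 0.23 and missed the threshold (adjusted p = 0.059), but was 0.96 higher without scaling (adjusted p = 5.9e-07). GLIS3 was higher in the high band, with 121 and 142 CPM, against 30.03 and 35.2 CPM (1.28), and NEAT1 had 2746 and 3209 CPM, against 1213 and 1271 CPM (0.53). DDX58 had 243 and 222 CPM in the high band, against 68.0 and 80.1 CPM (0.92). Counts with 1 DOX library left out are not given, since the spread would then come from the untreated libraries alone.

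**Figure D5:**
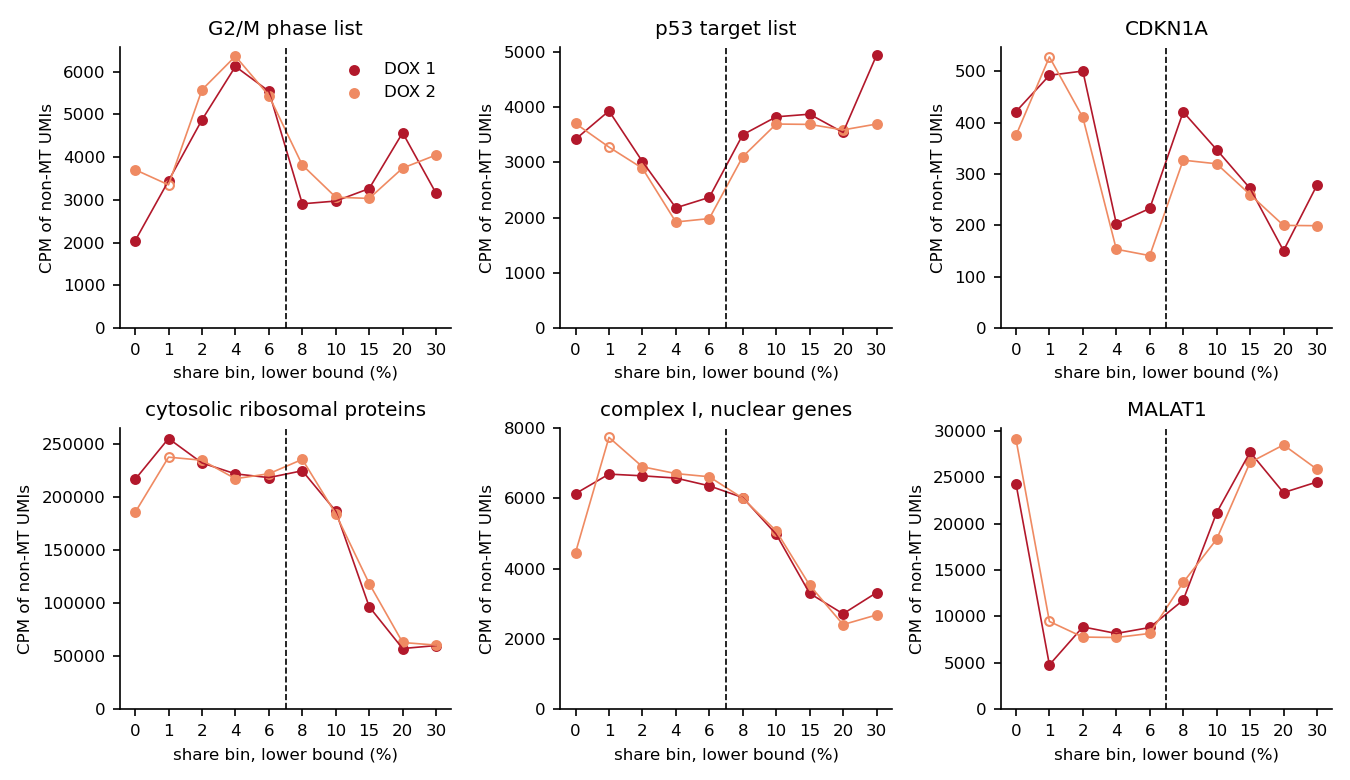
CPM of non-mitochondrial UMIs (y axes) of the G2/M, p53 target, cytosolic ribosomal protein and complex I lists, CDKN1A and MALAT1 by mitochondrial share (x axes, lower bound of the bin in percent, limit of 8% dashed) in both DOX libraries, with open points for bins under 20 barcodes. CDKN1A lies at 204 and 154 CPM at 4 to below 6% and at 421 and 327 CPM at 8 to below 10%.

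Control itself was not uniform along the share either. CDKN1A had 501 and 410 CPM at a share of 2 to below 4%, 204 and 154 CPM at 4 to below 6%, and 233 and 141 CPM at 6 to below 8%. The G2/M phase list ran the other way, with 4871 and 5574 CPM, then 6120 and 6359 CPM, then 5541 and 5439 CPM over the same bins. The control barcodes of lowest share lay near the members of 8 to below 10%. At 0 to below 1% (100 and 63 barcodes) CDKN1A had 422 and 375 CPM and the G2/M list 2041 and 3705 CPM. At 1 to below 2% (40 and 17 barcodes) the values were 493 and 528 CPM and 3445 and 3351 CPM. At 8 to below 10% CDKN1A stood at 421 and 327 CPM and the G2/M phase list at 2907 and 3814 CPM. Above 20% the shares of barcodes below 400 ribosomal protein UMIs reached 81.7% (73.6 to 88.1%) and 80.0% (71.3 to 87.0%), against 10.98% (6.64 to 16.8%) and 4.43% (2.05 to 8.25%) at 8 to below 10%.

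The same rule was applied to the untreated libraries to compare the effects with and without the drug. In 1 fit of all 8 sums, 3432 genes (16.1% of 21267) were higher and 5461 (25.7%) lower in untreated barcodes above 8% than in their control. The difference of the DOX and the untreated effects passed the threshold in 1229 genes with a positive sign (5.78%) and in 1177 with a negative sign (5.53%). These differences numbered 2406 with all libraries. Fewer passed with 1 untreated library left out, but the spread then comes from the DOX libraries alone, so those counts are not given. With the limit raised to a share of 10%, 25 positive and 34 negative differences passed, and at 20% it was 1670 positive and 199 negative ones. Untreated barcodes above 8% had a median of 32028 and 43283 UMIs, against 69524 and 77419 UMIs in their control, a gap in depth far wider than that of the DOX members.

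The effects on the cell cycle lists were more negative after DOX. The G2/M list had a median of -1.13 in DOX and -0.47 in untreated libraries, and the difference was negative in 55 of 61 genes. For the S phase list the medians were -1.08 and -0.62, with 43 of 53 negative, beside a background of 5.53%. Among barcodes of 10000 to below 50000 UMIs no gene of either list passed the test with a negative difference, with G2/M medians of -0.30 in DOX and -0.41 in untreated libraries. In that range 3 of 15146 genes passed in all. Among barcodes of 50000 to below 150000 UMIs the difference was negative in 57 of 61 G2/M and 50 of 53 S phase genes, beside 3793 of all 21262 genes. With the limit at a share of 10%, 1 G2/M gene and 0 S phase genes passed, and after thinning 9 of 61 and 8 of 53. HIST2H2AC differed by -1.33, and by 1.18 among barcodes of 10000 to below 50000 UMIs. Cholesterol synthesis genes had a median of -0.75 in DOX and 0.25 in untreated libraries, with 21 of 24 negative. That number was 0 at 10000 to below 50000 UMIs, where the medians were -0.34 and -0.30, 3 with the limit at a share of 10% and 9 after thinning. Among barcodes of 50000 to below 150000 UMIs it was 24 of 24, with medians of -0.80 and 0.62. INSIG1, which restrains the sterol response, had 14.6 and 16.3 CPM in DOX members, against 24.3 and 28.1 CPM in their control, whereas in untreated libraries it had 56.5 and 58.8 CPM above 8%, against 22.5 and 21.8 CPM. The difference of the effects was -2.12 ± 0.09 (SE, n = 2 libraries each, adjusted p = 2.3e-08). HMGCS1 and IDI1 of the same pathway differed by -1.34 and -1.27.

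DDIT4, an inhibitor of mTORC1, had 76.5 and 81.8 CPM in DOX members, against 53.7 and 54.9 CPM in control, with a log2 fold change of 0.04 in the fit of 4 sums, and in untreated libraries 98.7 and 91.6 CPM above 8%, against 22.8 and 20.9 CPM, so that the effects differed by -1.57. EGR1 differed by -1.26, a difference of 1.03 at 10000 to below 50000 UMIs. In the other direction stood SLC1A3, a glutamate transporter, with 41.7 and 43.4 CPM in DOX members, against 16.2 and 15.4 CPM, and 12.6 and 13.5 CPM in untreated barcodes above 8%, against 11.3 and 12.4 CPM, a difference of 1.29. GLIS3 (1.23), CHST11 (1.08), SNTB1 (1.02), PTPRN2 (1.02) and BTBD11 (0.95) followed. At 10000 to below 50000 UMIs the differences of GLIS3, SNTB1, PTPRN2 and BTBD11 were -0.36, -0.29, -0.36 and -0.046. PTCHD4 and LINC01021, the largest rises linked to p53, differed by -0.11 and -0.10 and missed the threshold (adjusted p = 0.86 and 0.84). In untreated libraries PTCHD4 had 2.96 and 5.59 CPM above 8%, against 0.905 and 0.992 CPM in control. LINC01021 had 6.08 and 4.70 CPM there, against 1.31 and 1.72 CPM.

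The differences of the ribosomal and respiratory lists changed with depth and with the limit on the share. Over all deep barcodes, 12 of 83 ribosomal protein genes and 15 of 37 complex I genes had a negative difference. Among barcodes of 50000 to below 150000 UMIs, the ribosomal protein median was -0.72 in DOX and -0.01 in untreated libraries, with 81 of 83 negative, and that of complex I was -0.84 and -0.13, with 36 of 37 negative. Among barcodes of 10000 to below 50000 UMIs, 3 genes in all passed (373 at an unadjusted p below 0.05), and ribosomal protein genes had a median of -1.03 in DOX and -1.45 in untreated libraries. With the limit at a share of 20% the sign was the opposite, with 75 of 83 ribosomal protein genes and 21 of 37 complex I genes positive and 0 negative. The ribosomal protein medians were then -3.00 in DOX and -4.39 in untreated libraries, and those of complex I were -2.56 and -3.39. Barcodes below 400 ribosomal protein UMIs were shallow in the untreated libraries, with a median of 18891 and 24797 UMIs above 8%, whereas in DOX they had 56460 and 67780 UMIs. Their part in the differences between DOX and untreated libraries was not tested.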

How the data were processed

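The authors deposited raw UMI counts per gene and barcode, made with Cell Ranger on hg19 (32738 genes). The header of the deposited count files and the methods name version 7.2.0, and the submitters' processing notes name 7.0.0. Whether intronic reads were counted is not given in the sources used here. The DOX libraries were set to 8000 barcodes each. The 6 bulk samples were not analysed here.

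Non-mitochondrial counts were summed per library and group and tested with edgeR 4.0.16 in R 4.3.3 (quasi-likelihood, TMM factors, filterByExpr, library as a block, Benjamini-Hochberg adjustment, threshold 0.05), with 4 sums for DOX and 8 sums for the difference between DOX and untreated. All adjusted p-values come from these fits. The block pairs high and control barcodes of the same library, and across genes the library deviations of the 2 groups had a correlation of 0.13. DESeq2 1.42.0 was an alternative. Members of the 2 DOX libraries differed beyond sampling noise (chi-square per degree of freedom 7.31). On simulated data for the DOX comparison over 20371 genes, 32, 34, 47 and 50 of 50 genes were recovered at folds of 1.25, 1.5, 2 and 4, and 17 calls (9.44%) were false. That share lay above the threshold of 0.05. Far fewer genes were planted than the 12473 called in the data, so errors under so many changes were not tested.

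Thinning drew 5000 non-mitochondrial UMIs per barcode and left out 9 members of each DOX library that were too shallow. Intervals are exact (Clopper-Pearson, 95%). Gene spans are from a GRCh37 annotation. Named genes were the 12 largest rises and falls (mean of at least 20 CPM, same side in both libraries), 3 genes per list taken by adjusted p, the 6 largest differences between DOX and untreated in each direction, and genes that the study names. Exceptions are marked in the text. The members and the gene lists were chosen with earlier results of these data known.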

Additional observations from a re-analysis of the deposited data

Results flagged for a closer look

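The effect of a high mitochondrial share differed between DOX and untreated libraries, by the test of the difference itself, in 1229 genes with a more positive and in 1177 genes with a more negative value after DOX. The more negative genes included 55 of the 61 G2/M genes, 43 of the 53 S phase genes and 21 of the 24 cholesterol synthesis genes. Among barcodes of 10000 to below 50000 UMIs, where 3 of 15146 genes passed in all, these numbers were 0, 0 and 0. Among barcodes of 50000 to below 150000 UMIs they were 57, 50 and 24. With the limit at a share of 10% they were 1, 0 and 3. Among single genes the difference was 1.29 for SLC1A3, 1.23 for GLIS3, 1.08 for CHST11, 1.02 for SNTB1, 1.02 for PTPRN2 and 0.95 for BTBD11 on the log2 scale. It was -2.12 for INSIG1, -1.57 for DDIT4, -1.34 for HMGCS1, -1.33 for HIST2H2AC, -1.27 for IDI1 and -1.26 for EGR1. Untreated barcodes above 8% were shallower than DOX members, with a median of 32028 and 43283 UMIs, and the part of this gap in the differences was not tested beyond the depth ranges given above.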

How the results depend on the processing

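Of 5698 genes higher and 6775 lower in members, 12052 and 2980 were called without scaling factors, 663 and 1264 at 10000 to below 50000 UMIs, 3570 and 3995 after thinning to 5000 UMIs, and 2805 and 3995 among barcodes poor in cycle UMIs, while DESeq2 called 2998 higher. The 2406 differences between DOX and untreated became 59 at a share of at least 10%, 3 at 10000 to below 50000 UMIs, 5712 at 50000 to below 150000 UMIs, 177 after thinning, and 1150 to 1199 without 1 untreated replicate and 2038 to 2043 without 1 DOX replicate. For members of 8 to below 10%, no scaling gave 1165 lower, DESeq2 gave 478 higher and 1146 lower, and no filter gave 1595 higher. For members of 15% or more against control, no scaling gave 13481 higher and 3148 lower, DESeq2 gave 3448 higher, and leaving out a DOX replicate gave 3407 to 3500 higher. For members of 15% or more against those of 8 to below 10%, no scaling gave 10201 higher and 2668 lower, DESeq2 gave 2028 higher, and leaving out a DOX replicate gave 2433 to 2616 higher.

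Without the replicate block, the paired main comparison called 5045 genes higher and 6406 lower, the differences between DOX and untreated fell to 503, and members of 8 to below 10% had 540 higher and 1068 lower.

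Directions turned as follows. Without scaling, the medians were 0.10 for mitochondrial transcription, 0.21 for mitochondrial dynamics, 0.10 for glycolysis, 0.018 for immediate early genes, 0.28 for BCL2 family genes and 0.21 for lysosomal genes, and BAX stood at 0.11 and CDKN1A at 0.38. With control at 4 to below 8%, CDKN1A stood at 0.30. At a share of at least 10%, the medians were -0.075 for U-ISGF3 genes and -0.089 for secretory genes. At 20% or more they were -0.47 for p53 targets and -0.49 for secretory genes, with GDF15 at -0.74, DDIT4 at -0.99, and the differences of DDIT4 at 0.78 and of HIST2H2AC at 0.84. At 10000 to below 50000 UMIs the medians were -0.0091 for p53 targets and -0.00062 for secretory genes, with EGR1 at 0.16, LINC01021 at -0.025 and MKI67 at 0.27, and the differences were -0.046 for BTBD11, 1.03 for EGR1, -0.36 for GLIS3, 1.18 for HIST2H2AC, -0.36 for PTPRN2 and -0.29 for SNTB1. Thinning put the difference of EGR1 at 0.016. Secretory genes had a median of -0.012 with no filter, -0.033 at 20000 UMIs or more and -0.11 among barcodes rich in cycle UMIs. Among barcodes poor in cycle UMIs, the medians were -0.26 for p53 targets, -0.13 for U-ISGF3 genes and -0.25 for secretory genes, with DDIT4 at -0.47, GDF15 at -0.30, MKI67 at 0.078 and ZMAT3 at -0.11. Without scaling, the added comparisons turned as follows. For members of 15% or more against those of 8 to below 10%, the medians were 0.37 for G2/M, 0.032 for S phase and 0.028 for p53 targets, with MKI67 at 0.68, LMNB1 at 0.72 and ZMAT3 at 0.62. Among barcodes poor in cycle UMIs, G2/M stood at 0.039 and p53 targets at 0.085, with LMNB1 at 0.31, GDF15 at 0.042 and ZMAT3 at 0.24. Among barcodes rich in them G2/M stood at 0.0093, MKI67 at 0.28 and LMNB1 at 0.096. For members of 8 to below 10% against control, ribosomal protein genes stood at 0.054. Except where the setting itself leaves fewer barcodes or UMIs, the cause was not tested.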
